A study of Homo sapiens with 4 samples.

Results

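Amino acid transporters of the plasma membrane were followed in PANC-1, a line of human pancreatic ductal adenocarcinoma cells, and in PZT-2, a line made from it. The set was defined by gene symbol, with no threshold on measured values, although earlier results of these data were known when it was drawn up, and held 10 genes: SLC7A5, SLC3A2, SLC7A6, SLC43A2, SLC1A5, SLC1A4, SLC38A1, SLC38A2, SLC7A1 and SLC7A2. Of these, 9 had values among the 15221 genes with values in the series. SLC7A2, a carrier of cationic amino acids, had no row of abundances and is not analysed here. PANC-1 cells were untransduced wild-type cells. PZT-2 is 1 stable clone of PANC-1 cells that carried lentiviral shRNAs against H2AFZ, which encodes H2A.Z.1, and H2AFV, the gene of the H2A.Z.2 isoforms, and that had been selected with puromycin. Both lines grew in DMEM with fetal bovine serum, and each was sequenced as 2 libraries of polyadenylated RNA. Since PANC-1 carried no vector, the knockdown of H2A.Z, the transduction, the selection and the choice of 1 clone cannot be told apart.

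Cells exchange amino acids with their surroundings through families of carriers with different demands. System L carriers move leucine and other large neutral amino acids without sodium, and those of the SLC7 family do so as pairs of a light chain with the heavy chain SLC3A2. They trade what they bring in for amino acids already in the cell, such as glutamine, which sodium-coupled carriers of the SLC38 family and exchangers of the SLC1 family take up. The leucine and arginine that enter are sensed by the kinase complex mTORC1, and a shortage of amino acids is sensed by the kinase GCN2, which raises translation of the transcription factor ATF4. Genes of amino acid carriers are among the known targets of ATF4, which binds DNA with C/EBP partners at composite sites.

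Because some genes of amino acid carriers are known targets of ATF4, the promoters of the carriers followed here are shown for such sites. The RefSeq promoters of GRCh38.p14, 300 bases from 250 before to 50 after each annotated start, were available for all 9 genes with values, 17 promoters in all. The letters TGATGNAAN, a form of the C/EBP-ATF composite site, were searched on both strands. They were found in 3.61% of 35116 promoters, in at least 1 promoter of 4.45% of 27305 genes, and in 5 of the 17 promoters, which belonged to 5 of the 9 carriers. The capitals below mark the match, with up to 20 bases on either side, each printed 5′ to 3′ along the strand of the gene.
SLC1A4: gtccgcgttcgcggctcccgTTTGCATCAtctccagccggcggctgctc
SLC3A2: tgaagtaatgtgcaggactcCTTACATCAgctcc
SLC1A5: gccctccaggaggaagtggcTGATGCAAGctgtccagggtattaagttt
SLC38A1: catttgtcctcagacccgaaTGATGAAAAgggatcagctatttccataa
SLC7A1: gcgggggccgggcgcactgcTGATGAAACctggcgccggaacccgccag
The window of SLC1A4 lay at chr2:64989371-64989419 on the plus strand and that of SLC3A2 at chr11:62881715-62881748 on the plus strand, and in both the match read on the opposite strand. That of SLC1A5 lay at chr19:46784883-46784931 on the minus strand. That of SLC38A1 lay at chr12:46266492-46266540 on the minus strand, and that of SLC7A1 at chr13:29595653-29595701 on the minus strand. Counted along the gene with the start as position 1, the matches began at -8 in SLC1A4, 37 in SLC3A2, -97 in SLC1A5, -4 in SLC38A1 and 8 in SLC7A1. SLC7A5, SLC7A6, SLC43A2 and SLC38A2 had no such letters in these windows, which says nothing of sites elsewhere in the genes.

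The E-box CACGTG, a site of MYC and related factors, does not overlap the composite site and was found in 7.26% of all promoters. It was present in promoters of SLC7A5 and SLC1A5, at chr16:87869612-87869657 and chr19:46787318-46787363, both on the minus strand.
SLC7A5: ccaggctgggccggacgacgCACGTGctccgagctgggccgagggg
SLC1A5: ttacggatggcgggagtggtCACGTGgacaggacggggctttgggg
These matches began at -130 and -50, each counted from the annotated start that its own promoter spans. The E-box and the composite site of SLC1A5 lay in different promoters of the gene. No binding was measured in the series, so a match describes the sequence and not a bound site.

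The libraries held between 12861388 and 15717448 estimated counts after an inferred factor per library was undone, and between 14334262 and 14919380 as deposited. The targeted H2AFZ had 6389 and 6034 normalized counts in PANC-1 replicates 1 and 2 and 2213 and 2258 in those of PZT-2, with a log2 fold change of -1.47 (standard error 0.0566, edgeR adjusted p = 5.93e-05). H2AFV had 3344 and 3452 in PANC-1 and 2590 and 2717 in PZT-2, with a log2 fold change of -0.36 (standard error 0.0569, edgeR adjusted p = 0.00554), so the targeted genes went with the labels. A normalized count is the count divided by its library's effective size and scaled to the mean library. Of 10 markers of pancreatic ductal and epithelial cells, 8 had values, led by the keratins KRT8, KRT18 and KRT19. Their summed TPM (a level adjusted for transcript length and library size) was 7330 to 7370 in PANC-1 and 3855 to 3934 in PZT-2, a sum set mainly by these keratins. The epithelial cadherin CDH1 had 116 and 148 normalized counts in PANC-1 and 0 and 18.8 in PZT-2. Of the same markers SOX9 was called higher in PZT-2 (2278 and 2050 against 2626 and 2530, edgeR adjusted p = 0.0368), and KRT7 and EPCAM were not called. None of 9 acinar markers had a value, the single endocrine marker with values of 6 reached at most 0.562 TPM, and 2 of 7 fibroblast markers summed to 10.7 and 11.6 TPM in PANC-1 and 3.94 and 3.14 in PZT-2, nearly all COL1A1, which was called lower (log2 fold change -1.75, edgeR adjusted p = 0.000441). Among leukocyte markers, 3 of 6 had values and summed to between 115 and 124 TPM, nearly all from CD68, while PTPRC had none. CD14 of that list was called higher from low counts, at 3.38 and 0 normalized counts in PANC-1 and 16.1 and 31.6 in PZT-2 (edgeR adjusted p = 0.0227). The part of these differences in the results below was not tested.

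The PANC-1 libraries differed from each other in these genes far more than the PZT-2 libraries did, and this touches nearly every comparison below. PANC-1 replicate 1 was above replicate 2 for 8 of the 9 carriers, against 49.8% of all 14988 genes tested, and was at least 1.2 times higher for 6 of the 9, against 14.8% of all genes. This limit was chosen after the values were seen. The median ratio of replicate 1 to replicate 2 was 1.31 over the carriers and 1.00 over all genes. Over all genes, 2225 were at least 1.2 times higher in PANC-1 replicate 1 and 2320 in replicate 2, and none of the carriers was so in replicate 2. The PZT-2 libraries were within 1.2 times of each other for all 9 carriers, whereas 25.8% of all genes were further apart in either direction. The genes tested include some with counts as low as 5 in 2 libraries, while no carrier was below 362 in a library. Because of the gap between the PANC-1 libraries, each carrier is given in every library, and fold changes are also given without each PANC-1 library. Calls and adjusted p without a PANC-1 library do not include the spread between the PANC-1 libraries.

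**Figure D1:**
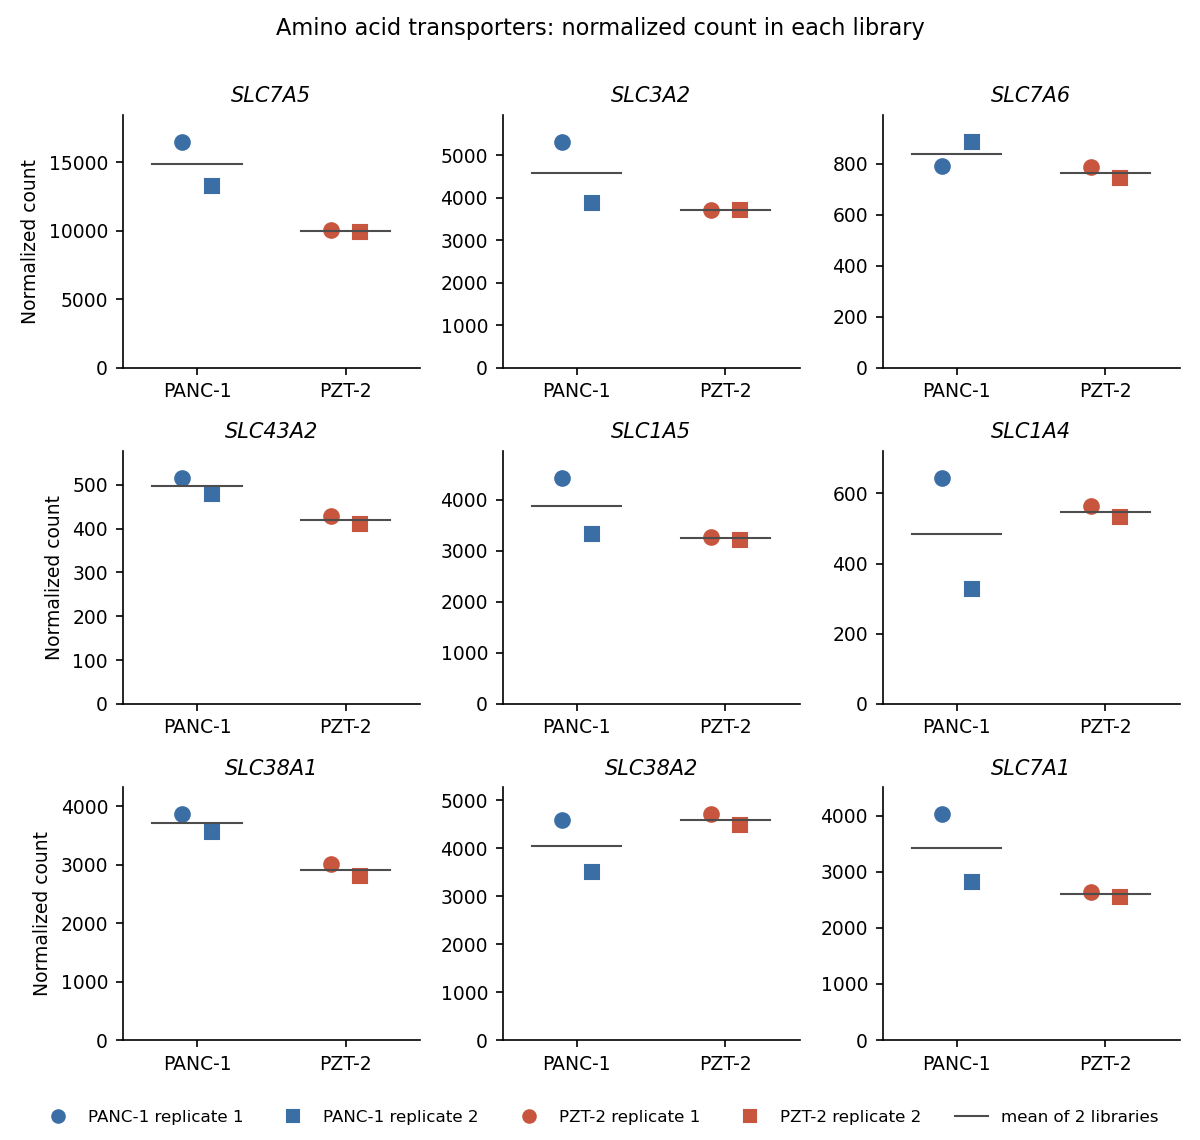
Normalized counts (vertical axes, from 0) of the 9 carriers in each library, with PANC-1 in blue, PZT-2 in red, circles for replicate 1, squares for replicate 2 and lines for the mean of 2 libraries. Both PZT-2 libraries lie below both PANC-1 libraries for 7 genes, and the PANC-1 libraries stand apart for SLC7A5, SLC3A2, SLC1A5, SLC1A4, SLC38A2 and SLC7A1.

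Across the 4 libraries, SLC7A5 and SLC38A1 were lower in PZT-2 and the other 7 carriers did not pass the test, so 2 of 9 were called lower and 0 higher. Of all genes, 13.8% were called lower and 14.9% higher by the same test, edgeR's quasi-likelihood test at a Benjamini-Hochberg adjusted p under 0.05 over 14988 genes. At an unadjusted p under 0.05 in the same test, SLC43A2 and SLC7A1 were added to these 2. Every gene called passes this looser cut too, and the share of all genes passing it is not given here. Both PZT-2 libraries were below both PANC-1 libraries for 7 of the 9 carriers, as they were for 33.1% of all genes, and SLC1A4 and SLC38A2 overlapped. The median log2 fold change was -0.25 over the carriers and 0.00 over all genes. With 2 libraries on each side, an exact permutation test of a single gene could not go below p = 0.333, so none was made. Fewer cells expressing a gene and less RNA per cell cannot be told apart in bulk libraries.

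SLC7A5 encodes LAT1, the light chain that exchanges leucine, phenylalanine, tryptophan and other large neutral amino acids. It had 16472 and 13234 normalized counts in PANC-1 replicates 1 and 2 and 10070 and 9898 in PZT-2 replicates 1 and 2. Both PZT-2 libraries were below the lower PANC-1 library, and the mean fell from 14853 ± 2290 (SD, n = 2) to 9984 ± 121 (SD, n = 2), which is 67.2% of the PANC-1 mean. This was a log2 fold change of -0.57 (standard error 0.0978, edgeR adjusted p = 0.00706), the largest in size among the carriers. It remained called lower in each of 16 alternative analyses, with adjusted p from 2.96e-06 to 0.0388, and was -0.41 without PANC-1 replicate 1 and -0.73 without PANC-1 replicate 2. The change was under 2-fold in all of these, so a further minimum of a 2-fold change left no carrier called.

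SLC3A2 encodes the heavy chain 4F2hc, also known as CD98, which brings SLC7A5 and SLC7A6 to the cell surface. It had 5311 and 3864 normalized counts in PANC-1 and 3711 and 3701 in PZT-2. PANC-1 replicate 1 stood above the other 3 libraries, and PANC-1 replicate 2 exceeded the PZT-2 libraries by little. The log2 fold change was -0.31 (standard error 0.137, edgeR adjusted p = 0.145). Without PANC-1 replicate 2 it was -0.53 and was called lower (adjusted p = 5.30e-05), whereas without PANC-1 replicate 1 it was -0.07 (adjusted p = 0.418), the bounds of its adjusted p over the 16 alternatives.

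SLC7A6, or y+LAT2, exchanges cationic against neutral amino acids and also pairs with SLC3A2. It had 791 and 885 normalized counts in PANC-1 and 786 and 743 in PZT-2, and was the only carrier with the higher PANC-1 value in replicate 2. PANC-1 replicate 1 and PZT-2 replicate 1 nearly coincided. The log2 fold change of -0.13 (standard error 0.0823) did not pass the edgeR test (adjusted p = 0.275), nor did it under any of the 16 alternatives (0.0966 to 0.814).

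SLC43A2, or LAT4, carries branched-chain and aromatic amino acids by facilitated diffusion and needs no heavy chain. It had 515 and 480 normalized counts in PANC-1 and 428 and 411 in PZT-2. All 4 values lay close together and the lines did not overlap, yet the log2 fold change of -0.24 (standard error 0.0851) did not pass the edgeR test (adjusted p = 0.0761). It passed under none of the 16 alternatives either (0.0581 to 0.282).

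SLC1A5, or ASCT2, is a sodium-dependent exchanger of neutral amino acids and a main route of glutamine into cancer cells. It had 4420 and 3327 normalized counts in PANC-1 and 3271 and 3215 in PZT-2. As for SLC3A2, PANC-1 replicate 1 was the high library and the other 3 lay close to each other. The log2 fold change was -0.25 (standard error 0.125, edgeR adjusted p = 0.179). It was -0.45 and called lower without PANC-1 replicate 2 (adjusted p = 0.000178) and -0.04 without PANC-1 replicate 1 (adjusted p = 0.628), which are the lowest and highest of the 16 alternatives.

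SLC1A4, or ASCT1, exchanges alanine, serine, cysteine and threonine. It had 644 and 327 normalized counts in PANC-1 and 564 and 533 in PZT-2, so that the PZT-2 values lay between the PANC-1 values. PANC-1 replicate 1 was 1.97 times replicate 2, the widest gap among the carriers. With all 4 libraries the log2 fold change was 0.19 (standard error 0.277, edgeR adjusted p = 0.654). It was called higher in PZT-2 without PANC-1 replicate 1 (0.74, adjusted p = 0.000672) and changed sign without PANC-1 replicate 2 (-0.24, adjusted p = 0.110), within a range of 0.000672 to 0.865 over the alternatives.

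SLC38A1, or SNAT1, takes up glutamine and other small neutral amino acids together with sodium. It had 3861 and 3551 normalized counts in PANC-1 and 3017 and 2803 in PZT-2. The lines did not overlap and the mean fell from 3706 ± 219 (SD, n = 2) to 2910 ± 151 (SD, n = 2), or 78.5% of the PANC-1 mean. The log2 fold change was -0.35 (standard error 0.068, edgeR adjusted p = 0.0113). Without either PANC-1 library it was still called lower, at -0.29 and -0.41. Without PZT-2 replicate 2, SLC7A5 was the 1 carrier called lower, where 7.13% of all genes were called lower and 8.09% higher. The call of SLC38A1 was lost without PZT-2 replicate 2 (-0.30, adjusted p = 0.0874), the highest of the 16 alternatives, and the lowest was 0.000198.

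SLC38A2, or SNAT2, has the same kind of transport and is known to rise when amino acids are scarce. It had 4602 and 3506 normalized counts in PANC-1 and 4711 and 4486 in PZT-2. Both PZT-2 libraries were near PANC-1 replicate 1, and PANC-1 replicate 2 was the low library. The log2 fold change was 0.18 (standard error 0.121, edgeR adjusted p = 0.309). It was called higher without PANC-1 replicate 1 (0.39, adjusted p = 0.000774) and was -0.01 without PANC-1 replicate 2 (adjusted p = 0.937), the lowest and highest adjusted p of the alternatives.

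SLC7A1, or CAT1, is a widely expressed carrier of arginine, lysine and ornithine. It had 4022 and 2808 normalized counts in PANC-1 and 2644 and 2547 in PZT-2. The libraries of the lines did not overlap, but PANC-1 replicate 2 was much closer to PZT-2 than to PANC-1 replicate 1. The log2 fold change was -0.39 (standard error 0.154, edgeR adjusted p = 0.105). It was called lower without PANC-1 replicate 2 (-0.64, adjusted p = 2.33e-05) and not without PANC-1 replicate 1 (-0.12, adjusted p = 0.165), with adjusted p up to 0.289 over the alternatives.

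In counts, 5 carriers were called lower and 0 higher without PANC-1 replicate 2, where 15.1% of all genes were called lower and 16.3% higher. These were SLC7A5, SLC3A2, SLC1A5, SLC38A1 and SLC7A1. Without PANC-1 replicate 1, 2 were called lower, SLC7A5 and SLC38A1, and 2 higher, SLC1A4 and SLC38A2, where 14.7% of all genes were called lower and 16.5% higher. SLC7A5 and SLC38A1 were thus called lower against either PANC-1 library alone. In these fits the lone PANC-1 library was assumed to vary like the PZT-2 pair. The carriers did not meet this, since 6 of 9 were at least 1.2 times apart in PANC-1 and 0 in PZT-2. The adjusted p of these fits thus leave out the spread between the PANC-1 libraries, and the fold changes are the safer reading.

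**Figure D2:**
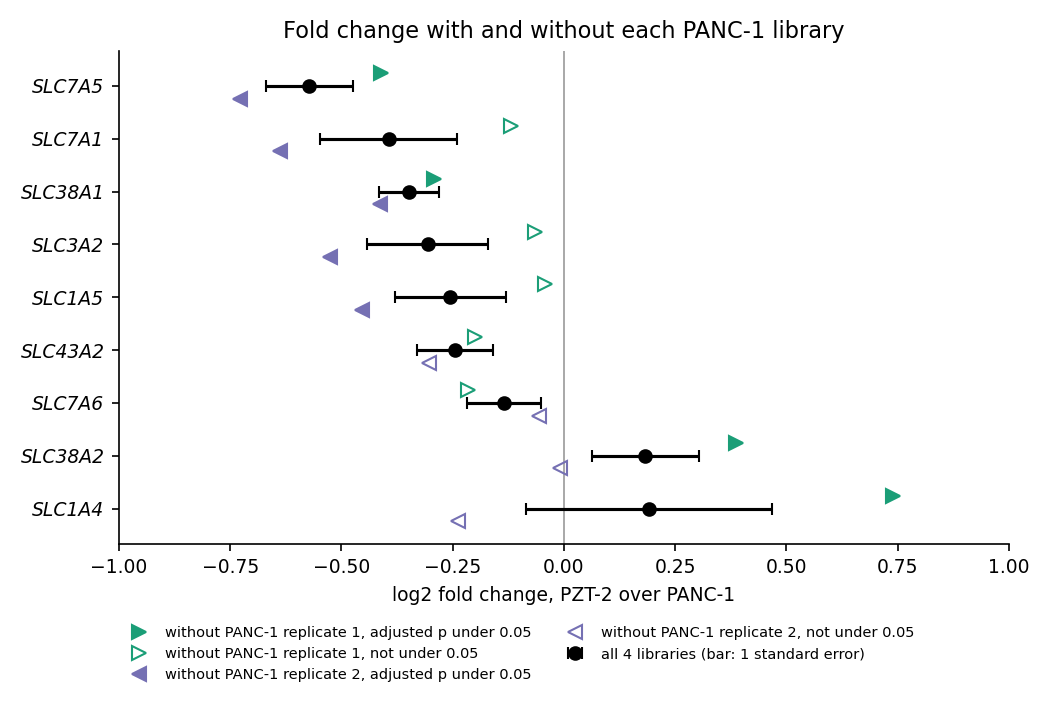
Log2 fold change of PZT-2 over PANC-1 (horizontal axis) for each carrier with all 4 libraries (black, bar of 1 standard error), without PANC-1 replicate 1 (green, pointing right) and without PANC-1 replicate 2 (purple, pointing left), with filled triangles for an adjusted p under 0.05. SLC7A5 and SLC38A1 are left of 0 with filled triangles in both, and SLC1A4 moves from 0.74 to -0.24.

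By length-adjusted level, the carriers kept 1 order in both lines. In TPM, SLC7A5 led with 415 ± 62.6 in PANC-1 against 276 ± 3.87 in PZT-2 (SD, n = 2 each). SLC3A2 followed with 308 ± 69.5 and 245 ± 0.771, SLC1A5 with 191 ± 41.1 and 152 ± 0.525, and SLC38A2 with 104 ± 19.6 and 117 ± 4.27 (SD, n = 2 each). SLC38A1 had 59.9 ± 3.52 TPM in PANC-1 and 46.4 ± 2.56 in PZT-2, and SLC7A1 had 58.5 ± 14.6 and 44.0 ± 1.24. These neighbours overlapped in both lines. SLC7A6, at 16.8 ± 1.37 and 15.2 ± 0.640 TPM, overlapped SLC1A4, at 17.8 and 9.08 TPM in the PANC-1 libraries and 15.5 and 14.6 TPM in those of PZT-2, likewise in both lines. SLC43A2 was lowest, at 7.58 ± 0.358 and 6.33 ± 0.185 TPM. Every other pair of neighbours in the order was apart in all libraries of each line.

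**Figure D3:**
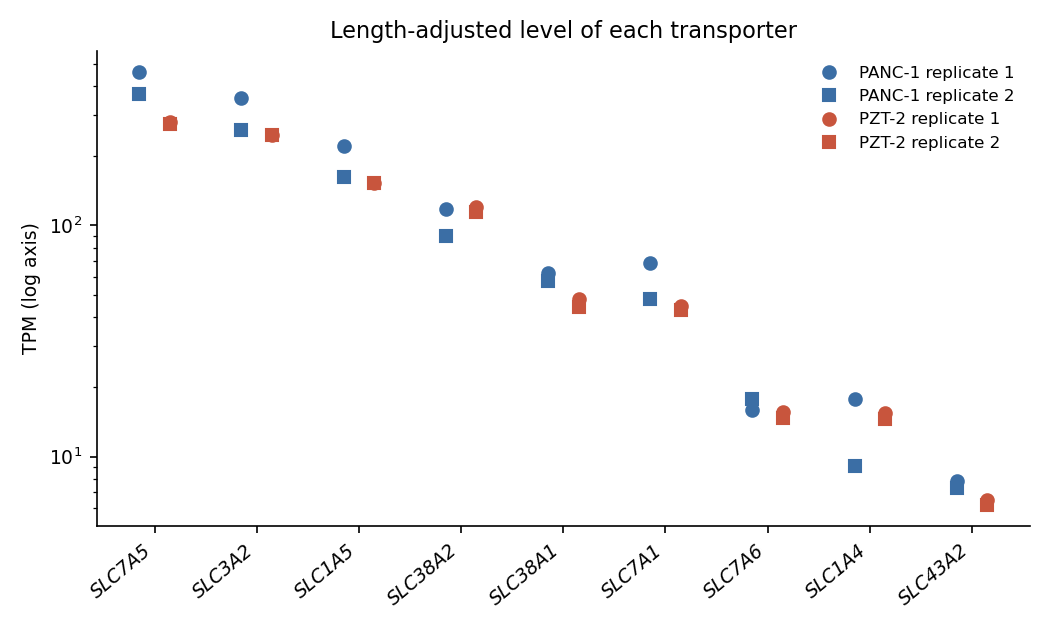
TPM of each carrier (vertical axis, log scale) in the 4 libraries, ordered by the PANC-1 mean, with PANC-1 in blue, PZT-2 in red, circles for replicate 1 and squares for replicate 2. Levels run from 459 TPM for SLC7A5 to 6.20 TPM for SLC43A2, and SLC38A1 and SLC7A1 overlap, as do SLC7A6 and SLC1A4.

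Relations between partners were read within each library, where a shift common to both genes cancels. The gap between the PANC-1 replicates was not equal in the partners and so did not cancel. In normalized counts, replicate 1 was 1.97 times replicate 2 for SLC1A4 and 1.33 for SLC1A5, and 1.31 for SLC38A2 and 1.09 for SLC38A1. The TPM of the light chain SLC7A5 over that of its heavy chain SLC3A2 was 1.29 and 1.43 in PANC-1 and 1.14 and 1.11 in PZT-2. Both PZT-2 ratios were below both PANC-1 ratios. The TPM of SLC38A2 over that of SLC38A1 was 1.89 and 1.57 in PANC-1 and 2.49 and 2.56 in PZT-2, higher in both PZT-2 libraries. The TPM of SLC1A5 over that of SLC1A4 was 12.4 and 17.9 in PANC-1 and 9.86 and 10.4 in PZT-2. All 9 carriers together held 1326 and 1021 TPM in PANC-1 and 927 and 908 TPM in PZT-2, of which SLC7A5 made up 34.6% and 36.3% in PANC-1 and 30.1% in each PZT-2 library. These ratios are descriptions of 4 libraries and were not tested.

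The 9 carriers had 23 transcripts with values, of which 0 passed edgeR's test over transcripts, where 0.149% of all 30162 transcripts tested passed. At an unadjusted p under 0.05 there were 5, beside 5593 of all 30162 transcripts. DESeq2 called 4, beside 4429 of all transcripts. SLC7A5, SLC7A1 and SLC1A4 were each measured through 1 transcript. For SLC38A1, NM_001278389 had 1904 and 2080 normalized counts in PANC-1 and 1388 and 1184 in PZT-2, with a log2 fold change of -0.63 (adjusted p = 0.107 in edgeR, 1.70e-06 in DESeq2). Among the other 4 transcripts of SLC38A1 the log2 fold change ran from -0.22 to 0.15, and the libraries of the lines overlapped for each. NM_030674 of SLC38A1 had 1132 and 585 in PANC-1, wider apart than the gene as a whole.

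Minor transcripts of SLC38A2 and SLC1A5 differed more than their genes, none past the threshold of edgeR. For SLC38A2, NM_001307936 had 55.1 and 56.3 normalized counts in PANC-1 and 150 and 129 in PZT-2, with a log2 fold change of 1.32 (adjusted p = 0.122 in edgeR, 0.00180 in DESeq2). Of the counts of the gene it held 1.2% and 1.6% in PANC-1 and 3.18% and 2.89% in PZT-2, so nearly all of SLC38A2 was NM_018976 in every library. For SLC1A5, NM_001145145 had 287 and 161 normalized counts in PANC-1 and 99.5 and 89.7 in PZT-2. Its log2 fold change was -1.24 (adjusted p = 0.202 in edgeR, 0.0206 in DESeq2). NM_001145144 of SLC1A5 had 407 and 209 in PANC-1 and 91.4 and 164 in PZT-2. Its log2 fold change was -1.27 (adjusted p = 0.317 in edgeR, 0.0568 in DESeq2). The main transcript of SLC1A5, NM_005628, made up 84.3% and 88.9% of the gene in PANC-1 and 94.2% and 92.1% in PZT-2. Its own log2 fold change was -0.15 (edgeR adjusted p = 0.686).

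The main transcript of SLC3A2, NM_001013251, carried the gap between the PANC-1 libraries, with 4256 and 2796 normalized counts in PANC-1 and 2696 and 2776 in PZT-2. NM_001012662 of SLC3A2 had 554 and 596 in PANC-1 and 637 and 523 in PZT-2, with no such gap. For SLC43A2, NM_001284498 and NM_001321365 ranged from 0 to 64.3 and from 0 to 90.0 normalized counts in a way that went with no line, while NM_152346 held at least 79.5% of the gene in each library. SLC7A6 was split between NM_003983, with 62.8% to 67.1% of its counts, and NM_001076785. Estimated counts of transcripts that share exons depend on how reads were divided among them, so these shares are less certain than the gene sums.

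**Figure D4:**
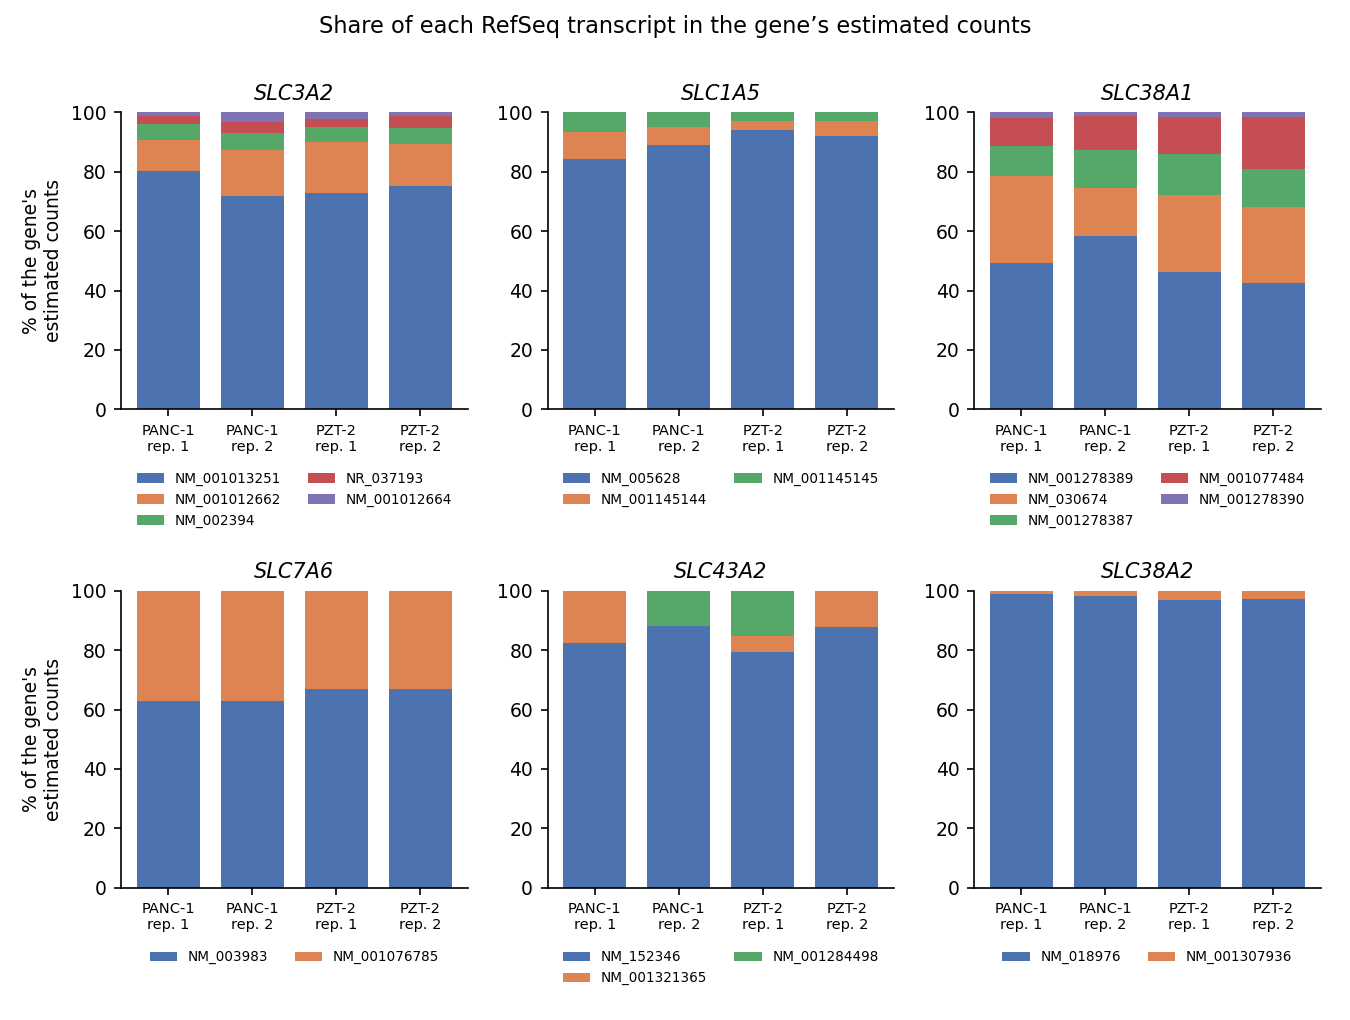
Share of each RefSeq transcript in the estimated counts of its gene (vertical axes, percent) in the 4 libraries, for the 6 carriers with more than 1 transcript with values. NM_005628 holds 84.3% to 94.2% of SLC1A5, and NM_001278389 holds 42.4% to 58.3% of SLC38A1.

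Of 42 other amino acid transporters, 21 had values and 20 were tested, with 1 called higher, 2 called lower and a median log2 fold change of -0.14, against 14.9% called higher and 13.8% lower over all genes. SLC38A4, or SNAT4, had 18.0 and 28.9 normalized counts in PANC-1 and 94.6 and 119 in PZT-2, with a log2 fold change of 2.16 (standard error 0.279, edgeR adjusted p = 0.00268). SLC36A1, a proton-coupled carrier of lysosomes and the cell surface, had 354 and 380 in PANC-1 and 261 and 284 in PZT-2. Its log2 fold change was -0.43 (edgeR adjusted p = 0.0203), and it was called in 10 of 16 alternatives and not by DESeq2. The call of SLC36A1 was lost without PZT-2 replicate 1 (adjusted p = 0.114) or 2 (0.0588), with 0.0120 to 0.114 over the alternatives. SLC38A3, named after its value was seen, was called lower at 24.8 and 14.5 in PANC-1 and 5.03 and 1.98 in PZT-2 (edgeR adjusted p = 0.0274). That call was lost without PZT-2 replicate 2 (adjusted p = 0.116, 0.0185 to 0.116 over the alternatives), where SLC38A4 was the 1 gene of the list still called. SLC7A11, the cystine carrier that also pairs with SLC3A2, had 510 and 267 in PANC-1 and 365 and 295 in PZT-2, again with PANC-1 replicate 1 highest. It was not called and was named after its values were seen.

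Genes through which amino acids act on mTORC1 were all measured, and of 40 there were 4 called higher and 9 lower, with a median log2 fold change of -0.03. The shares called over all genes were 14.9% higher and 13.8% lower. Without PZT-2 replicate 2 the list had 2 higher and 4 lower, where 8.09% and 7.13% of all genes were called. RRAGD, a RAG GTPase that recruits mTORC1 to lysosomes, fell from 390 and 344 normalized counts in PANC-1 to 46.3 and 27.7 in PZT-2, with a log2 fold change of -3.31 (standard error 0.211, edgeR adjusted p = 0.000292). FNIP2, a partner of folliculin, fell by 1.01 on the log2 scale (edgeR adjusted p = 0.00378). LAMTOR1, the Ragulator subunit that anchors the RAG GTPases, had a log2 fold change of -0.63 (edgeR adjusted p = 0.00189). CASTOR1, the cytosolic arginine sensor that restrains mTORC1, rose from 123 and 143 in PANC-1 to 396 and 413 in PZT-2, with a log2 fold change of 1.60 (standard error 0.116, edgeR adjusted p = 0.000428). SEC13, a subunit of GATOR2, rose by 0.44 (edgeR adjusted p = 0.0063). DEPTOR, an inhibitor of mTOR, rose by 0.88 from low counts of 49.5 and 32.5 to 78.5 and 71.2 (edgeR adjusted p = 0.0473), a call kept in 8 of 16 alternatives (0.0124 to 0.166) and lost when PANC-1 replicate 2 (0.144) or either PZT-2 library (0.163 without the first, 0.118 without the other) was left out.

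Enzymes that use the amino acids carried gave 4 calls lower and 0 higher among 23 of 24 with values, with a median log2 fold change of -0.11, beside 13.8% lower and 14.9% higher over all genes. Without PANC-1 replicate 2 there were 6 lower and 1 higher, beside 15.1% and 16.3%. GLUL, glutamine synthetase, fell from 551 and 543 normalized counts in PANC-1 to 52.3 and 43.5 in PZT-2, with a log2 fold change of -3.51 (standard error 0.125, edgeR adjusted p = 5.65e-05). PYCR1, the last enzyme of proline synthesis, fell from 4893 and 3915 to 2851 and 2914, a log2 fold change of -0.61 (edgeR adjusted p = 0.00698). GOT2, the mitochondrial aspartate aminotransferase, had a log2 fold change of -0.24 (edgeR adjusted p = 0.0263), not called without PZT-2 replicate 1 (0.10) or 2 (0.195), against 0.0128 to 0.195 over the alternatives. BCAT1, the cytosolic branched-chain aminotransferase, was named after its values were seen. It had 86.6 and 73.2 normalized counts in PANC-1 and 0 in both PZT-2 libraries.

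Genes of the GCN2 and ATF4 response differed between the PANC-1 libraries in the same direction as the carriers. Of 23 such genes, 20 were higher in PANC-1 replicate 1 than in replicate 2, against 49.8% of all genes tested. At least 1.2 times higher were 18 of the 23, against 14.8% of all genes, and none was lower by as much. The median ratio was 1.56, against 1.00 over all genes. In PZT-2 none of the 23 differed by 1.2 times between replicates, whereas 25.8% of all genes did. The list was drawn up with earlier results of these data known. The genes that follow were named after their values were seen. ATF4 had 3645 and 2206 normalized counts in PANC-1 and 4255 and 4411 in PZT-2. TRIB3, an ATF4 target, had 4009 and 1190 in PANC-1 and 1626 and 1702 in PZT-2, and ATF3 had 526 and 131 in PANC-1 and 382 and 415 in PZT-2. ASNS, asparagine synthetase, had 5040 and 2862 in PANC-1 and 2728 and 2798 in PZT-2. SESN2, a leucine sensor and ATF4 target of the mTORC1 list, had 1514 and 391 in PANC-1 and 1438 and 1548 in PZT-2. ATF4 was above both PANC-1 values in each PZT-2 library, whereas PZT-2 lay between the PANC-1 values for TRIB3 and ATF3, on either side of replicate 1 for SESN2 and just below replicate 2 for ASNS.

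**Figure D5:**
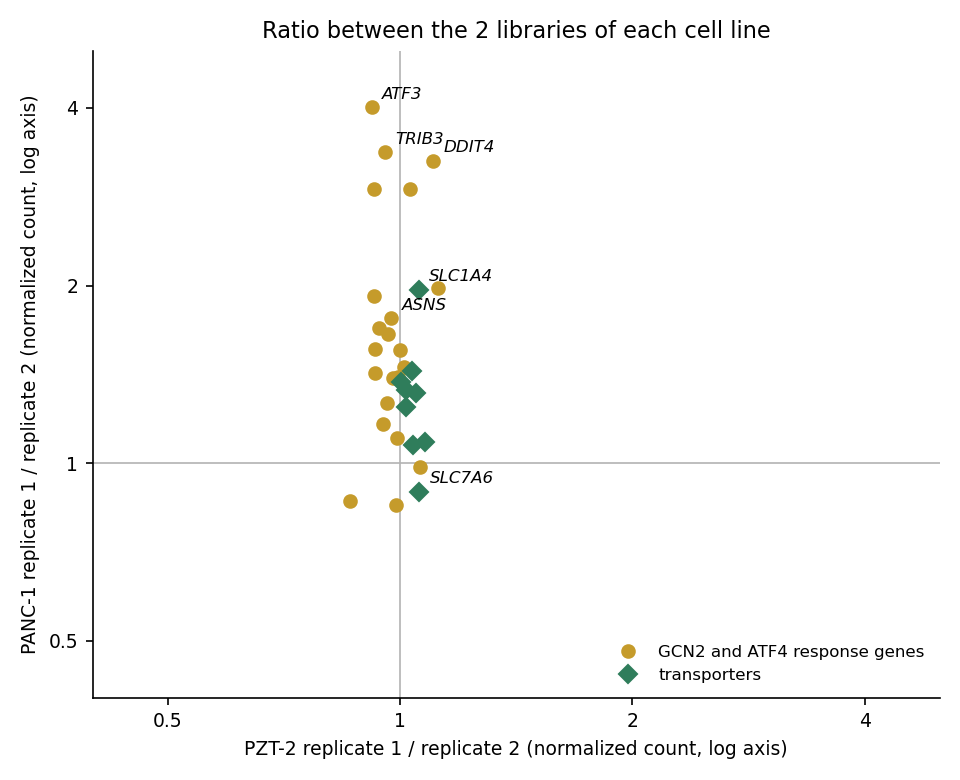
Ratio of replicate 1 to replicate 2 in normalized counts within PZT-2 (horizontal axis, log scale) and within PANC-1 (vertical axis, log scale), for the 9 carriers (diamonds) and for genes of the GCN2 and ATF4 response (circles, without VLDLR, which had 0 in PANC-1 replicate 2). Points spread upward from 1 in PANC-1, to 1.97 for SLC1A4 and 4.01 for ATF3, and stay near 1 in PZT-2.

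Fold changes of this list turned on which PANC-1 library was compared. With all 4 libraries 2 genes were called higher and 2 lower, where 14.9% of all genes were called higher and 13.8% lower. The median log2 fold change of the list was 0.01 with all 4 libraries. It was 0.48 without PANC-1 replicate 1 and -0.30 without PANC-1 replicate 2. When either PZT-2 library was left out 1 gene was called, lower in PZT-2. Calls over all genes also dropped then, to 8.70% lower and 9.44% higher without replicate 1 and to 7.13% and 8.09% without replicate 2. The 4 called with all libraries were named by the rule. ATF5, a target and relative of ATF4, had 2767 and 2508 normalized counts in PANC-1 and 1454 and 1466 in PZT-2, with a log2 fold change of -0.85 (standard error 0.0685, edgeR adjusted p = 0.000575), and was called in all 16 alternatives. PSPH, the last enzyme of serine synthesis, had -0.38 (edgeR adjusted p = 0.0214) and EIF2AK4, which encodes GCN2, had 0.34 (edgeR adjusted p = 0.0312). PPP1R15A, which directs the removal of the phosphate from eIF2-alpha, had 0.75 (edgeR adjusted p = 0.0415). Of the 16 alternatives, PSPH was called in 13, EIF2AK4 in 11 and PPP1R15A in 8. Under limma-trend with either pseudocount, no gene of the list was called higher. These 3 calls were lost without PZT-2 replicate 1 or 2, with adjusted p of 0.0976 and 0.0676 for PSPH, 0.0896 and 0.120 for EIF2AK4, and 0.0698 and 0.117 for PPP1R15A. Their ranges over the alternatives were 0.000587 to 0.0976, 0.00136 to 0.120, and 8.28e-06 to 0.168. Whether the state these genes reflect had a part in the carriers' values was not tested.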

How the data were processed

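RNA-seq libraries of PANC-1 (n = 2) and PZT-2 (n = 2) were analysed, which the study calls biological replicates. Whether they were separate cultures is not given in the sources used here, so p-values measure the spread between these libraries, which may be technical. The authors trimmed reads with Trim Galore 0.4.1, quantified RefSeq transcripts with kallisto 0.43.0 and ran sleuth 0.29.0. The RefSeq release of that index is not given in the sources used here. The deposited estimated counts were inferred to carry 1 factor per library (1.16, 0.935, 1.03 and 1.01), from low values of genes with 1 transcript. This factor was undone, giving 12861388, 15717448, 13955433 and 14175550 counts. Of the low values, 49.0% to 49.8% per library then lay near whole numbers, against 0.635% to 2.71% as deposited. The deposited TPM were used as given, and the deposited sleuth columns (effects, p and q values) were not used.

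Transcripts were summed per gene through the deposited symbols, and 3925 of 4028 without one through their accession in RefSeq for GRCh38.p14, while 103 (0.0467% of counts) stayed unnamed. Sums were rounded. Genes that reached 5 counts in 2 or more libraries were tested in R 4.3.3 with edgeR 4.0.16 (TMM, quasi-likelihood, Benjamini-Hochberg over all genes, threshold 0.05). Alternatives (17) included DESeq2 1.42.0 and limma 3.58.1. The members and lists were chosen with earlier results of these data known. All members were named, and of other lists at most 3 genes per direction with the largest change among called, non-overlapping genes with a mean of at least 50. The 1.2 times limit and the genes so described were choices made after values were seen.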

Additional observations from a re-analysis of the deposited data

How the results depend on the processing

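Of 144 fold changes of carriers under the alternatives, 136 kept their direction and side of the threshold. SLC1A4 (-0.24 to 0.74 over the libraries left out) and SLC38A2 (-0.0077 to 0.39) changed sign without PANC-1 replicate 2, 5 newly passed the threshold when 1 PANC-1 library was left out, and SLC38A1 lost its call without PZT-2 replicate 2. Leaving out 1 library at a time, the carriers called ranged from 1 to 5 (main value 2), other transporters from 1 to 4, mTORC1 genes from 6 to 15, GCN2 and ATF4 genes from 1 to 19, enzymes from 3 to 7 and all genes from 2235 to 4604 (main value 4294). A further minimum of a 2-fold change left 835 genes, 0 carriers, 3 mTORC1 genes, 0 GCN2 and ATF4 genes and 2 enzymes. The most abundant transcript alone gave 2135 genes, 1 other transporter, 8 mTORC1 genes and 1 GCN2 and ATF4 gene. DESeq2 gave 1 other transporter and 4 transcripts of the carriers, and the stricter filter of 10 counts in each of 4 libraries gave 1 transcript. With limma-trend on log2 TPM, a pseudocount of 1 or 0.1 gave 2 GCN2 and ATF4 genes. The causes were not tested.

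Libraries share replicate numbers across the lines. Deviations of same-numbered libraries correlated at -0.0214 over genes. A correlation over genes from so few libraries cannot show whether they shared a preparation or run. The main test used no pairing. With the replicate block 3761 genes were called (1991 higher, 1770 lower), against 4294, and 2 carriers, again SLC7A5 and SLC38A1. The lowest count of a carrier gene in a library was 362 (SLC1A4, PANC-1 replicate 2).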
